A study of Homo sapiens with 6 samples.

Results

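The EGF-family ligands and ERBB receptors were followed in cells of the human colorectal carcinoma line HCT116. The system was taken as 10 genes, 6 ligand genes (EREG, TGFA, HBEGF, EGF, NRG1 and NRG4) and 4 receptor genes (EGFR, ERBB2, ERBB3 and ERBB4), out of 18417 genes with a probe set of exactly 1 gene symbol. All 10 were measured, 9 by 1 probe set and NRG1 by 2, which makes 11 probe sets. The set was chosen by measured values, namely the mutant minus parental difference, which was already known for EREG, which had the decrease of rank 2 among all genes, and for NRG1, which had the increase of rank 7. The differences of the 10 genes between the lines are therefore given as descriptions with no p-value. Intervals and calls of members from the fit over all probe sets show the error of a value and support nothing further.

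RNA was profiled on 6 whole-transcript arrays, 3 of parental HCT116 cells and 3 of a mutant line derived from them that the labels describe as having altered DNA methylation. Both were grown in McCoy's 5A medium with serum and antibiotics, with no added treatment named. The question was which transcripts change with the mutation. The mutated gene is not named in the labels, nor do they say whether the mutant arrays come from 1 clone, so the mutation and other differences between the lines cannot be told apart. Whether the 3 arrays of a line stem from separate cultures is not stated, so all tests measure only the spread between these arrays. Values are log2 signals, and 1 unit is a 2-fold difference. Array medians lay between 6.88 and 6.93, arrays of the same line correlated at 0.995 to 0.996 over probe sets and arrays of different lines at 0.988 to 0.989. Over all 33297 probe sets, 18.5% passed the test between the lines at an adjusted p under 0.05.

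Ligands of the EGF family are made as membrane-spanning precursors, cut loose by metalloproteases, and bind receptor tyrosine kinases of the ERBB family, which then pair and signal through the RAS-ERK and PI3K routes. Epiregulin (EREG), TGF-alpha (TGFA), heparin-binding EGF-like growth factor (HBEGF) and EGF bind EGFR, and epiregulin and HBEGF also bind ERBB4. Neuregulin 1 binds ERBB3 and ERBB4, and neuregulin 4 binds ERBB4. ERBB2 has no known ligand and acts as a partner of the others, and ERBB3 has a weak kinase and signals mainly through its partner. In colorectal epithelium this system drives growth and renewal, and epiregulin is studied as a marker of EGFR-dependent tumours.

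Sequence upstream of the measured ligand genes that lie together with EREG on chromosome 4 is shown first, because the values below differ so much between them. Windows of the RefSeq promoter table (build GRCh38.p14) were used for 8 of the 10 genes, all but NRG1 and ERBB3. The 250 bases before the start site are printed 5' to 3' with each CpG, the dinucleotide at which human DNA is methylated, in capitals. The EREG window is chr4:74364895-74365144 on the plus strand, the EPGN window chr4:74308220-74308469 on the plus strand, and the BTC window chr4:74794524-74794773 on the minus strand.
EREG: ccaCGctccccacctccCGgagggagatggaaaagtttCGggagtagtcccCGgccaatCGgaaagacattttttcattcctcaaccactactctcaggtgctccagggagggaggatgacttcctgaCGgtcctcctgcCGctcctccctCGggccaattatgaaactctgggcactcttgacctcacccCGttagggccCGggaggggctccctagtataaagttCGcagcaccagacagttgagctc
EPGN: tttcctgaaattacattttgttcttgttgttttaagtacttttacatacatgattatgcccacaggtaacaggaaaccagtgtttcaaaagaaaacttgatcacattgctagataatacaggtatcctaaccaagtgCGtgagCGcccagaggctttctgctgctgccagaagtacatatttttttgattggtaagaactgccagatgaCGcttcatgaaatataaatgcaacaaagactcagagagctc
BTC: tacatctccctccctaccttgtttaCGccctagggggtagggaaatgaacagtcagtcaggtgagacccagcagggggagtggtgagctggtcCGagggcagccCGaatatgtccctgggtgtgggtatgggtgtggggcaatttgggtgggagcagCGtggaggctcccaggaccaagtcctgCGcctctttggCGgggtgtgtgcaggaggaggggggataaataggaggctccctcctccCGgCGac
The printed stretch of EREG holds 11 CpGs, that of EPGN 3 and that of BTC 8. All 3 genes encode ligands of the same receptor family, epigen (EPGN) and betacellulin (BTC) beside epiregulin.

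EREG, the gene of epiregulin, had the largest difference of the set and was lower in the mutant. Its probe set (8095728) read 13.21, 13.24 and 13.29 in the parental arrays and 6.85, 6.72 and 6.78 in the mutant arrays. The means were 13.25 ± 0.04 and 6.78 ± 0.06 (log2 ± SD, n = 3 each), a difference of -6.47, or 88.6-fold on this scale. The mutant mean lay only a little above 6.09, the near-background level explained below. The array summary compresses dim signals, so the fold holds for this scale only. The arrays of the lines were separated by a gap of 6.37, against a spread of 0.13 or less within either line.

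The other ligands of EGFR were far more even. TGFA (probe set 8052872) read 9.03, 9.11 and 9.19 in parental and 9.04, 9.04 and 9.14 in mutant arrays, and the lines overlapped. Its mean difference was -0.04, with a 95% interval of -0.19 to 0.11 from the limma fit. HBEGF (8114572) read 8.93, 8.90 and 9.06 in parental and 8.97, 8.94 and 9.02 in mutant arrays, a difference of 0.02 (95% interval -0.13 to 0.17), again with overlap. Both ligands thus had bright signal in each line, and in neither was the difference larger than the spread between arrays.

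EGF (8096845) was dim throughout. It read 5.13, 5.18 and 5.00 in parental and 5.80, 5.79 and 5.99 in mutant arrays, without overlap and with a difference of 0.75. The table carries no detection flags. As a guide to background, the 75th percentile of the parental means of 21 fibroblast, leukocyte and endothelial marker genes was 6.09, and a mean below that level is called near background here. By this guide the EGF signal was near background in both lines, a range in which the array summary compresses differences.

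Of the neuregulins, NRG1 was the member with the largest increase and NRG4 lay lower in the mutant. The first NRG1 probe set (8145736), listed for 17 RefSeq transcripts, read 6.03, 5.83 and 6.08 in parental and 9.04, 8.93 and 8.76 in mutant arrays. The second (8145766), listed for 1 transcript record that is not a RefSeq transcript, read 5.40, 5.60 and 5.71 against 8.69, 8.62 and 8.67. The differences were 2.93 and 3.09 on the log2 scale. The gap between the lines was 2.68 on the first and 2.91 on the second. Parental NRG1 was near background on both probe sets and mutant NRG1 was not, so the sizes of these differences rest on a dim signal that the array summary compresses, and no fold is given.

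NRG4 (7990555) read 4.76, 4.97 and 5.62 in parental and 4.01, 3.73 and 4.15 in mutant arrays. The parental array of replicate 3 stood above the other two, and the lines did not overlap. The difference was -1.16 between means of 5.12 ± 0.45 and 3.96 ± 0.21 (log2 ± SD, n = 3 each). Both means were near background. NRG4 had the widest spread of the set within the parental line (0.86), and in the fit over all probe sets it was no longer called without mutant replicate 1 or without mutant replicate 2.

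**Figure D1:**
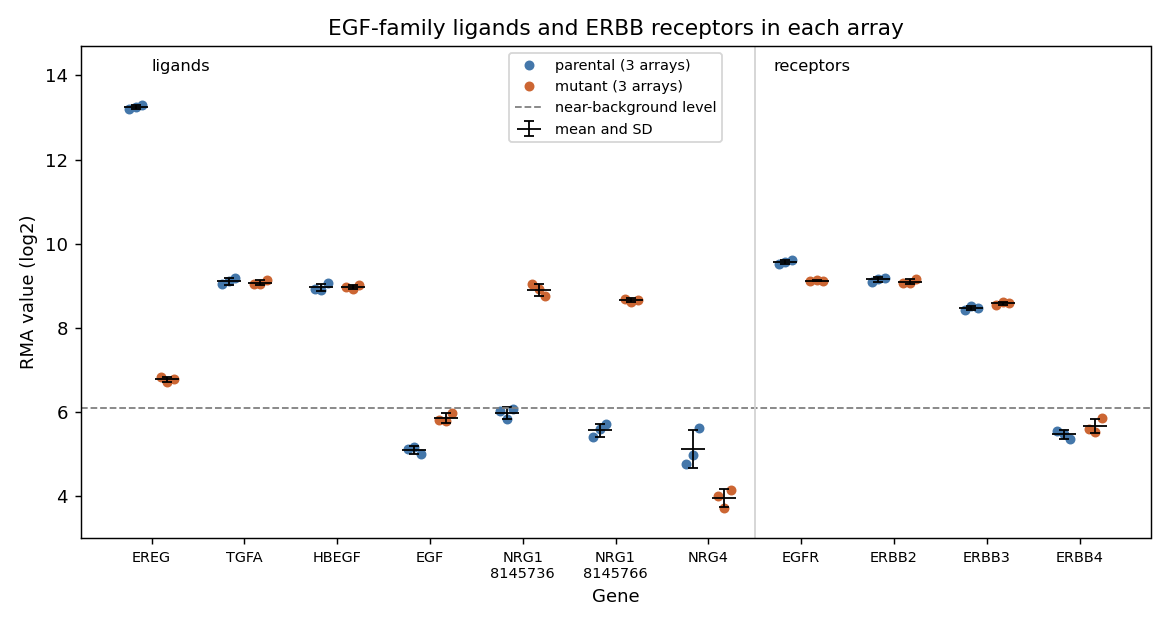
RMA value (log2) of each of the 11 probe sets in the 3 parental and 3 mutant arrays, with mean and SD, ligands left of the vertical line and receptors right of it. EREG stands at 13.25 in parental and 6.78 in mutant cells, and both NRG1 probe sets stand 2.93 and 3.09 higher in the mutant, while TGFA, HBEGF and ERBB2 overlap between the lines; the dashed line is the near-background level of 6.09.

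The receptors differed little beside EREG and NRG1. EGFR (8132860), the receptor of epiregulin, read 9.53, 9.56 and 9.62 in parental and 9.13, 9.14 and 9.11 in mutant arrays. The lines did not overlap, and the difference was -0.44, or 1.36-fold lower. EGFR had the narrowest spread of the set within the mutant line, 0.02.

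ERBB2 (8006906) read 9.09, 9.17 and 9.20 in parental and 9.07, 9.06 and 9.16 in mutant arrays, with overlap and a difference of -0.06 (95% interval -0.19 to 0.08). ERBB3 (7956120), a neuregulin receptor, read 8.42, 8.53 and 8.48 against 8.55, 8.60 and 8.60. Its mutant arrays were all above the parental ones, but by a gap of only 0.02, and the difference was 0.11 (95% interval -0.02 to 0.23). ERBB4 (8058627), which binds both epiregulin and neuregulins, read 5.56, 5.49 and 5.36 against 5.61, 5.53 and 5.86, near background in both lines and with overlap. Its difference was 0.20 (95% interval -0.05 to 0.45). EGFR, ERBB2 and ERBB3 thus lay above the near-background level in both lines.

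Counted by gene, 5 of the 10 members were called in the fit over all probe sets, NRG1 and EGF higher and EREG, NRG4 and EGFR lower, where 25.9% of all genes were called. The lines did not overlap in 6 of the 10, the 5 called genes and ERBB3, where 45.8% of all genes did not overlap. The median difference of the members was -0.01, beside 0.00336 over all genes. Since the set was proposed from this contrast, nothing is read from these counts.

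The other ligand genes of the family, which were not in the proposed set, were tested. This list and the other gene lists below were chosen with earlier results of these data known. That limits what their p-values and counts can support. The share over all genes given beside each count includes dim genes and was not matched to the signal level of the list. Of 5 listed, 4 were measured. AREG, the amphiregulin gene beside EREG, had no probe set that could be named, so its expression was not analysed here. None of the 4 passed the limma test (0 higher, 0 lower), where 25.9% of all genes did. An unadjusted p under 0.05 was found for 1. That 1 was BTC (8101002), which read 6.73, 6.39 and 6.46 in parental and 6.24, 6.20 and 6.24 in mutant arrays, a difference of -0.30 (limma adjusted p = 0.0763; 0.0322 to 0.189 over its alternatives). EPGN (8095723) read 3.00, 3.21 and 3.16 against 3.10, 3.22 and 3.02, well below the near-background level in both lines. NRG2 and NRG3, which like the other neuregulins bind ERBB3 or ERBB4, gave -0.04 each, with 95% intervals of -0.22 to 0.14 and -0.25 to 0.17.

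The measured neighbours of EREG on chromosome 4 differed between the lines by -0.30 to 0.51. Of the 5 nearest measured genes on each side, 1 passed the test as higher and 1 as lower. Of all genes, 14.6% were higher and 11.3% lower. RCHY1, a ubiquitin ligase gene, rose by 0.51 (limma adjusted p = 0.00134), from 8.83, 8.82 and 8.88 to 9.32, 9.40 and 9.32. PARM1 fell by 0.29 (limma adjusted p = 0.0173), from 9.57, 9.60 and 9.69 to 9.37, 9.27 and 9.34, and its call was lost in 5 of 13 alternatives. The median of the 10 neighbours was -0.12. The neighbour with bright signal nearest to EREG on the lower side, MTHFD2L, a gene of mitochondrial folate metabolism, read 7.76, 7.82 and 7.91 against 7.60, 7.77 and 7.54. Its difference of -0.19 did not pass (limma adjusted p = 0.161). Chromosome 4 as a whole had 11.7% of its 710 genes lower, close to the 11.3% over all genes.

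Around NRG1 on chromosome 8, 2 of the 10 nearest measured genes rose and 0 fell. They were RNF122, by 0.47 (limma adjusted p = 0.00375), and POFUT3, by 0.41 (limma adjusted p = 0.00254), both on the higher side. The nearest measured gene on the other side, the DNA helicase gene WRN, differed by 0.08 (limma adjusted p = 0.380). The median of the 10 was 0.12. Of the 639 genes of chromosome 8, 13.8% were higher, beside 14.6% over all genes.

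**Figure D2:**
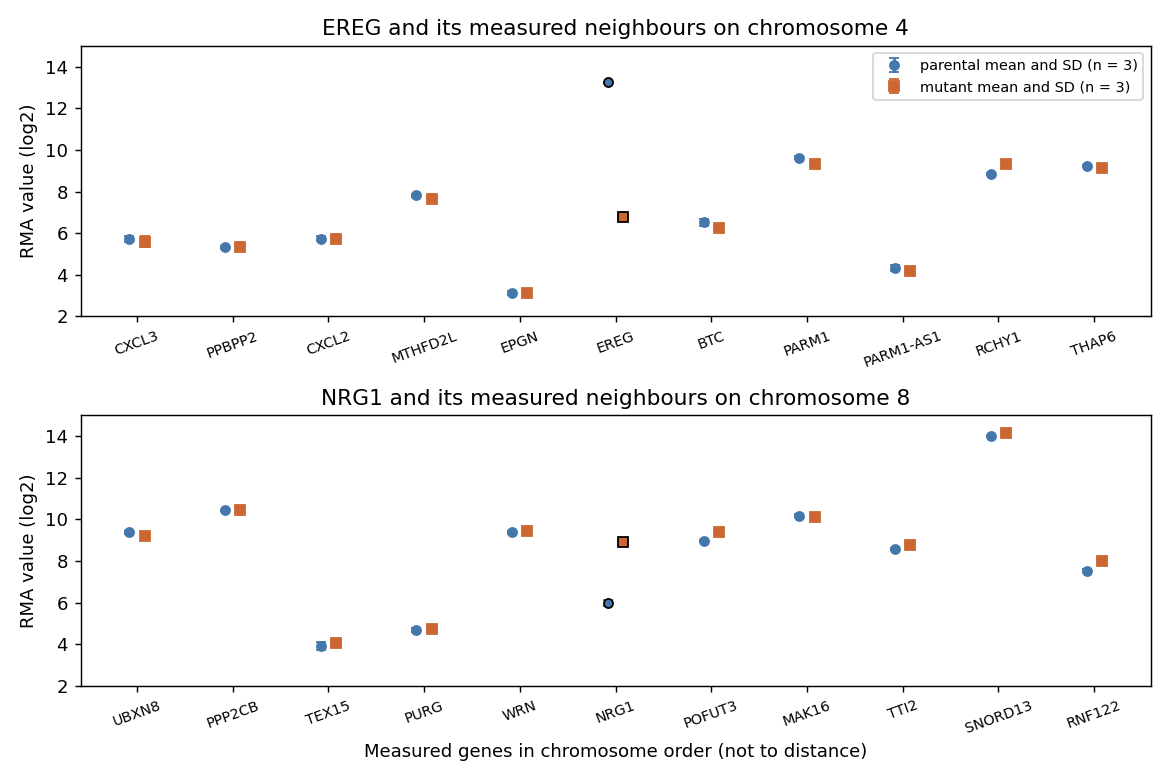
Mean RMA value (log2) with SD (n = 3 arrays) in parental and mutant cells for EREG (top) and NRG1 (bottom, probe set 8145736), outlined in black, and the 5 nearest measured genes on each side in chromosome order. EREG and NRG1 differ by -6.47 and 2.93, whereas their neighbours run from -0.30 to 0.51 and from -0.17 to 0.47.

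The genes whose profile over the 6 arrays was most like that of EREG, by Euclidean distance of log2 values after removing each gene's own mean, were OR51B4 (distance 0.31), VSNL1 (0.37), NETO2 (0.54) and MAL2 (1.06). They are listed on chromosomes 11, 2, 16 and 8, and differed between the lines by -6.24, -6.36, -6.07 and -7.24. Those nearest to NRG1 were ANXA10 (0.45), CSAG1 (0.50), TNFSF18 (0.50) and PHYHD1 (0.53). These lie on chromosomes 4, X, 1 and 9, with differences of 2.60, 3.30, 2.88 and 2.92. The nearest genes were found on the same 6 arrays, and the likeness is a description of size and direction only.

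The CpG content of the promoter windows was counted because the labels give altered DNA methylation for the mutant. Over the whole 300-base window (250 before and 50 after the start), EREG held 12 CpGs, EGF 4 and NRG4 6, against a median of 14 over 35116 windows. The 12 of EREG were more than 46.9% of windows hold, and BTC, not a member, also held 12. HBEGF held 38, more than 90.1% of windows. The main EGFR window held 33 and a second one inside the gene 1. TGFA held 22 and 30 in its pair of windows, ERBB2 24 and ERBB4 19. EREG, EGF and NRG4 thus lay below the median, HBEGF, TGFA, ERBB2 and ERBB4 above it, and EGFR on both sides. Whether CpG content goes with the differences between the lines was not tested. NRG1 and ERBB3 are not in this comparison, and methylation itself was not analysed here.

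**Figure D3:**
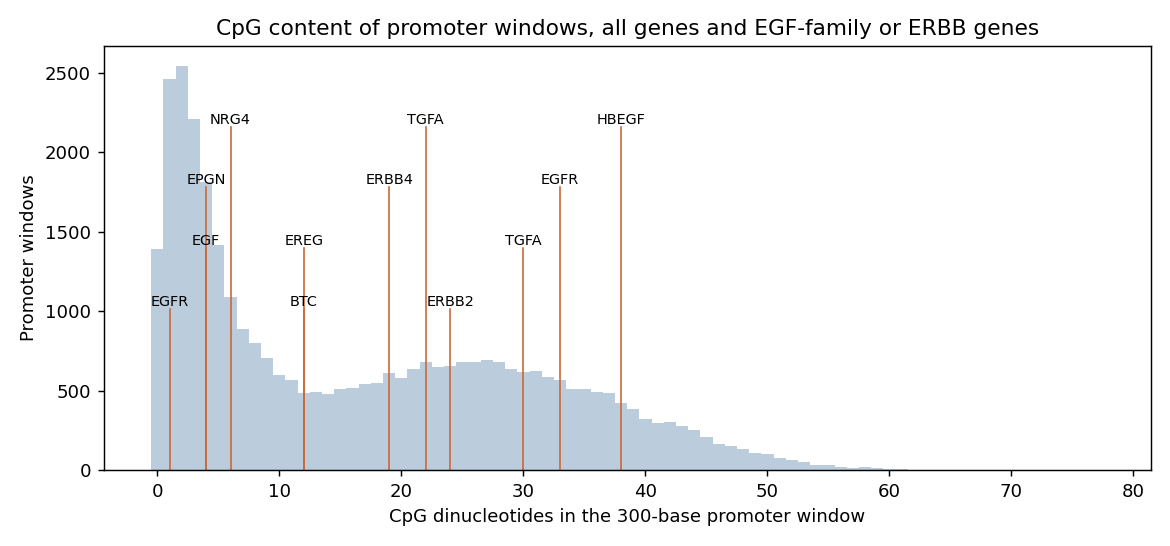
Number of promoter windows of 300 bases (bars, all 35116) by the number of CpGs they hold. Vertical lines mark the windows of the 8 members used and of EPGN and BTC, and line heights only separate the labels. The windows of AREG, NRG2 and NRG3, with 25 to 45 CpGs, are not marked. EREG and BTC stand at 12, EPGN and EGF at 4 and HBEGF at 38, with 2 windows each for TGFA and EGFR.

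In the windows of the 8 members used, and of EPGN and BTC, 4 motifs were searched on both strands. The letters TATAAA, the core of a TATA box, were found for EREG, EPGN, NRG4 and the second EGFR window, and in 11.5% of all windows. GGGCGG, the GC box bound by SP1, was found for HBEGF, ERBB4, BTC, 1 window of TGFA and 1 of EGFR, and in 45.0% of all windows. TGANTCA, the AP-1 site, was found for EGF, ERBB2 and the second EGFR window, and in 7.71% of all. TGACGTCA, the cyclic AMP response element, was in none of these windows and in 1.85% of all. The windows of AREG, NRG2 and NRG3 were not included here, and that of AREG holds this element. A match describes the letters only.

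Proteases of the ADAM family and their partners release ligands from the cell surface. Of 13 measured genes of ligand shedding and trafficking, 5 fell and 1 rose, where 11.3% and 14.6% of all genes did, and the median difference was -0.17. ADAM19, a metalloprotease that can cut neuregulin, fell the most of them (8115490), from 10.65, 10.68 and 10.69 to 8.65, 8.54 and 8.57, a change of -2.09 (limma adjusted p = 1.35e-05). ADAM9 fell by 0.78 (limma adjusted p = 0.00034) and ADAM15 by 0.74 (limma adjusted p = 0.00135). BACE1, an aspartic protease that cuts neuregulin 1, rose by 1.38 (limma adjusted p = 0.000106), from 7.58, 7.63 and 7.70 to 9.01, 8.94 and 9.12.

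ADAM17, the main sheddase of epiregulin, TGF-alpha and HBEGF, is named after its values were seen, as is its cofactor gene RHBDF2. ADAM17 fell from 9.59, 9.66 and 9.74 to 9.06, 9.11 and 9.09, by 0.57 (limma adjusted p = 0.00122), and RHBDF2 by 0.33 (limma adjusted p = 0.00857). ADAM10, the main sheddase of EGF and betacellulin, gave -0.17 and did not pass (limma adjusted p = 0.0604; 0.00914 to 0.188 over its alternatives). TIMP3, an inhibitor of ADAM17, gave -1.10 and -0.40 on its probe sets with wide spread among mutant arrays (5.74, 5.12 and 6.26 on the brighter one), and neither passed (limma adjusted p = 0.0518 and 0.0603). The brighter one was called in 7 of 13 alternatives (limma adjusted p = 0.0180 to 0.147).

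Of 23 measured genes that restrain or remove the receptors, 10 fell, 1 rose and 12 did not pass, where 11.3% of all genes fell and 14.6% rose, with a median of -0.05. PTPN2, a tyrosine phosphatase that acts on EGFR (8022393), fell from 9.67, 9.56 and 9.67 to 8.62, 8.59 and 8.74, by 0.98 (limma adjusted p = 0.000299). LRIG1, which promotes the degradation of ERBB receptors, fell by 0.88 (limma adjusted p = 0.00157), and EPN1, an adaptor of clathrin-mediated uptake, by 0.66 (limma adjusted p = 0.000476). ERRFI1, a feedback inhibitor that binds the EGFR kinase and is named after its values were seen, fell by 0.46, from 12.66, 12.67 and 12.70 to 12.21, 12.21 and 12.23 (limma adjusted p = 0.00114). CBLB, a ubiquitin ligase for receptors, was the 1 that rose, by 0.41 (limma adjusted p = 0.00308). For SH3KBP1, a CBL partner named because its probe sets disagreed, the brighter probe set gave 0.04 (limma adjusted p = 0.726) and the other -0.56, which passed (limma adjusted p = 0.00118).

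Among 28 measured adaptors and signal carriers, 7 rose, 5 fell and 16 did not pass, where 14.6% of all genes rose and 11.3% fell, with a median of 0.04. Of these calls, GAB1 (higher) was lost in 9, SOS2 (higher) in 10 and MAPK3 (lower) in 8 of 13 alternatives. These 3 are named for that reason. The brighter GAB1 probe set gave 0.32 (limma adjusted p = 0.0498), and the other gave -0.03 and did not pass (limma adjusted p = 0.855). The RAF kinase gene ARAF fell by 1.97 (8167165; limma adjusted p = 3.48e-05), from 9.81, 9.83 and 9.94 to 7.96, 7.91 and 7.79. PIK3R3, a regulatory subunit of PI3K, fell by 1.56 (limma adjusted p = 0.000408), and GRB2, the adaptor that links receptors to SOS, fell by 0.55 (limma adjusted p = 0.000941). The adaptor genes SHC4, SHC2 and SHC3 rose by 0.72, 0.44 and 0.36 (limma adjusted p = 0.00334, 0.0221 and 0.00551). The call of SHC2 was lost in 5 of 13 alternatives (limma adjusted p = 0.00661 to 0.0746). Their family member SHC1, named after its values were seen, fell by 0.47 (limma adjusted p = 0.00349). Of the 38 genes of this list 10, among them several RAS and RAF genes, had no probe set that could be named and were not analysed here. Without parental replicate 2 the number called was 7 rather than 12.

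Of 18 measured genes known to follow ERK signalling, 6 rose, 8 fell and 4 did not pass, where 14.6% of all genes rose and 11.3% fell, and the median was -0.20. DUSP4 and DUSP6 encode ERK phosphatases of the same family and went opposite ways. DUSP4 (8150076) rose from 9.31, 9.34 and 9.40 to 10.51, 10.43 and 10.47, by 1.12 (limma adjusted p = 8.87e-05). DUSP6 (7965335) fell from 10.86, 10.97 and 10.97 to 9.86, 9.75 and 9.80, by 1.13 (limma adjusted p = 0.000143).

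The feedback inhibitor gene SPRY2 rose by 0.96 (limma adjusted p = 0.000283) and the transcription factor gene ETV4 by 0.56 (limma adjusted p = 0.000902). The ephrin receptor gene EPHA4 fell by 1.10 (limma adjusted p = 0.00217) and SPRED1, an inhibitor of RAS signalling, by 0.63 (limma adjusted p = 0.00254). Without mutant replicate 2, 9 of the 18 were called rather than 14, 3 higher and 6 lower.

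**Figure D4:**
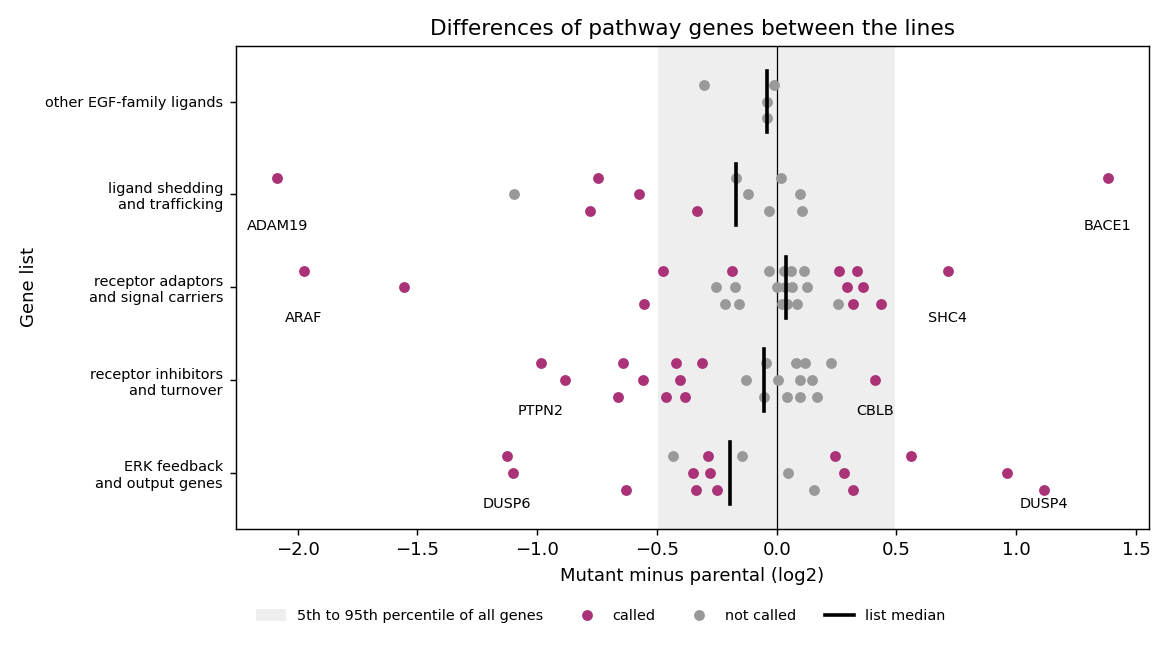
Mutant minus parental difference (log2) of each measured gene, by its brightest probe set, in the 5 lists of pathway genes. Called genes (adjusted p under 0.05) are purple, bars are list medians, and the grey band runs from -0.49 to 0.49, the 5th to 95th percentile of all genes; the 4 other ligands lie within it, while ADAM19 reaches -2.09 and BACE1 1.38.

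Over the 5 lists together 86 of 98 genes were measured, with a median of -0.04. Of these 15 rose and 28 fell, where 14.6% of all genes rose and 11.3% fell. Whether genes of like signal level outside the lists were called as often was not tested. Some of the called genes lie on chromosomes where calls leaned one way. RHBDF2, GRB2 and HGS, all lower, are on chromosome 17, where 22.9% of genes were lower, and PTPN2 is on chromosome 18, where 66 of 264 were. SHC3, higher, is on chromosome 9, where 30.9% of genes were higher. The part of these chromosome-wide values in the gene differences was not tested. ERBB2 and ETV4 are also on chromosome 17, with differences of -0.06 and 0.56. SPRY2, higher by 0.96, is on chromosome 13, where 17.7% of genes were lower and 11.4% higher.

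The labelled cell type was checked on marker genes. EPCAM (12.15 and 12.33), KRT8 (13.32 and 12.79) and the intestinal factor CDX2 (8.52 and 8.48) had bright parental and mutant means, whereas KRT20, CDH17, VIL1 and CEACAM5 of the same list were near background in both lines. Of the 12 epithelial markers 4 fell and 0 rose, where 11.3% of all genes fell and 14.6% rose. CDH1 was among those that fell, by 1.36 (limma adjusted p = 0.000204). The mean of the list ran from 8.68 to 8.71 in parental and from 8.37 to 8.50 in mutant arrays. The part of these marker values in the ligand and receptor differences was not tested. Leukocyte markers had 0 of 7 called, endothelial 0 of 6 and fibroblast markers 1 of 8 (PDGFRB, higher), where 25.9% of all genes were called. Of the glial and melanocyte markers, cells in which neuregulin and ERBB3 are prominent, 1 of 5 was lower (MITF) and 0 were higher. By the guide level of 6.09, which is itself the 75th percentile of the parental means of the leukocyte, fibroblast and endothelial lists together so that most of their genes fall below it, 5 of 7 leukocyte, 4 of 8 fibroblast and 4 of 6 endothelial markers were near background in both lines. Defining markers ranged widely in parental and mutant means, from PTPRC (3.72 and 3.73), LUM (3.07 in each line) and PECAM1 (5.00 and 4.93) to COL1A1 (8.30 and 8.13) and CLDN5 (7.38 and 7.45).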

How the data were processed

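Gene expression was measured on Affymetrix Gene ST arrays from 100 ng of total RNA, biotin-labelled as the labels' protocols state. The deposited values are log2 signals. The authors made them with RMA and Partek software, per the submitters' processing notes, which name no versions. RMA corrects background, makes array distributions alike by quantile normalization and summarises probe sets, so it removes differences in total RNA and compresses dim signals. The number of arrays limits the precision.

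Of 33297 probe sets, 19460 had 1 gene symbol in the platform annotation, 1754 several and 12083 none. Mutant minus parental differences were tested without covariates in limma 3.58.1 (lmFit, eBayes, two-sided) in R 4.3.3, adjusted by Benjamini-Hochberg over all probe sets and called at an adjusted p under 0.05. Genes outside the 10 were represented by their brightest probe set. On data simulated over 33297 probe sets, with 200 changed, 62.7% of 1.5-fold, 89.6% of 2-fold and 98.5% of 4-fold changes were recovered, and 11 unchanged probe sets were called. The simulation drew each value independently and changed far fewer probe sets than the 6166 called in the data. These shares need not hold for the data.

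Named were the 10 genes, the other ligands, up to 3 called genes per list and direction and among neighbours, and the 4 nearest profiles to EREG and NRG1; others are marked where they occur. The members and lists were chosen with earlier results of these data known. Neighbours came from the order of genes in the RefSeq table of GRCh38.p14, used without coordinates because the build of the probe annotation is not given. Replicate numbers are shared between the lines, but deviations of same-numbered arrays correlated at -0.01 to 0.04, so arrays were not paired. Alternatives covered normalization, a filter on dim probe sets, an intensity trend, array weights, a replicate block, testing single-symbol probe sets alone, averaging the probe sets of each gene and leaving out each array. The 13 alternatives counted per probe set leave out the averaging of probe sets, which was counted for the lists only. Figures used Python 3.11.15 and matplotlib 3.10.9.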

Additional observations from a re-analysis of the deposited data

How the results depend on the processing

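All 142 recomputed member differences, over 13 alternatives, stayed within 1 SD of the replicates. The trend, block, filter and single-symbol settings leave a member's difference unchanged by construction. Leaving out 1 of 3 arrays moves a group mean by less than the SD of its arrays. This count thus says little about how firm the differences are. The members called numbered 4 with the filter at a mean log2 of 5, which drops NRG4, and 5 under re-normalization, subtracted medians, trend, weights, block and single-symbol testing; it was not counted for the mean of each gene's probe sets. With that filter, and with single-symbol probe sets only, 1 of the other ligands was called, BTC as lower, in place of 0. With the replicate block the neighbours of EREG called were 1 rather than 2, the members stayed at 5, and the probe sets called were 4365 rather than 6166; as the arrays share only a number, the block is not read as pairing. With 1 array left out at a time, the counts were 4037 to 4644 probe sets, 4 to 5 members, 0 to 0 other ligands, 6 to 7 shedding genes, 7 to 9 adaptors, 10 to 10 receptor inhibitors, 9 to 14 ERK genes, 1 to 2 neighbours of EREG and 2 to 2 of NRG1. Adaptors numbered 7 without parental replicate 2 and ERK genes 9 without mutant replicate 2. Without parental replicate 2, 4109 probe sets were called, and without mutant replicate 2, 4037. The 1 neighbour of EREG still called without mutant replicate 2 or 3 or parental replicate 2 or 3 was RCHY1. Fewer arrays leave a weaker test by construction; other causes were not tested. Of 47 called list and neighbour genes, 12 lost the call in at least 1 alternative and 0 reversed. Differences of near-background probe sets are limited by signal over background.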
